A study of Mus musculus with 18 samples.

Results

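The 38 genes described here encode subunits and partners of the Polycomb and trithorax chromatin complexes. They were taken by symbol from a list of such regulators of Hox chromatin, and all 38 were found among the 37224 genes counted. The list holds 11 genes of Polycomb repressive complex 2 (PRC2), 18 genes of Polycomb repressive complex 1 (PRC1) and 9 genes on the trithorax side. RNA was measured in 18 libraries of cells derived from mouse embryonic stem cells of strain C57BL/6, in 6 groups of 3. The groups were Hoxb1-null and wild-type neuromesodermal progenitors (NMPs), and 4 groups of neural progenitors (NPs): expressing Hoxb1 under doxycycline (DOX) with SAG, SAG alone, Hoxb1 under DOX alone, and neither. SAG is an agonist of Smoothened that switches on hedgehog signalling, and all groups went through the study's differentiation protocol. NPs without Hoxb1 received no DOX by the labels, so Hoxb1 and DOX cannot be told apart. The sources used here do not say how many clones each genotype stands for, where the null lesion lies in Hoxb1, or whether the 3 libraries of a group came from separate cultures, and p-values measure only the spread between these libraries.

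PRC2 methylates lysine 27 of histone H3 (H3K27), and PRC1 ubiquitinates histone H2A and compacts chromatin. The genes of the Hox clusters are classic targets of both complexes, which keep them silent until the axial position of a cell is set. Trithorax proteins oppose them, mainly by methylating lysine 4 of histone H3 (H3K4) or by removing the methyl groups from H3K27, and hold active Hox genes in the active state. Both systems are built from families of related genes whose choice of member sets the variant of the complex, so that the levels of paralogs within a family are informative beside the level of any single gene.

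Total counts per library ran from 16836409 to 19136064 in Hoxb1-null NMPs, from 16523276 to 21141058 in wild-type NMPs, from 22610407 to 24488882 in NPs with Hoxb1 and SAG, from 22682012 to 26974315 in NPs with SAG, from 13301476 to 14505711 in NPs with Hoxb1, and from 13589876 to 13976829 in NPs with neither. Library numbers in the labels form 3 sets, 1 for the NPs with SAG, 1 for those without SAG and 1 for the NMPs, so that SAG, the difference of the Hoxb1 effects by SAG, and the contrast of NMPs with NPs cannot be told apart from the library set. Hoxb1 itself stood at 14.6, 16 and 14.6 CPM (counts scaled to the library total) in Hoxb1-null NMPs and at 239, 271 and 248 CPM in wild-type NMPs. In NPs it stood at 617, 576 and 592 CPM with Hoxb1 and SAG against 0.507, 0.385 and 0.496 CPM with SAG, and at 337, 329 and 306 CPM with Hoxb1 against 0.357, 0.645 and 0.0705 CPM with neither. The labels and the Hoxb1 counts went the same way in all 18 libraries. The summed level of 10 NMP markers was 1435 to 1512 CPM in Hoxb1-null NMPs, 1641 to 1832 CPM in wild-type NMPs and 398 to 687 CPM over the 12 NP libraries, while 8 neural progenitor markers summed to 507 to 525 CPM, 515 to 559 CPM and 1650 to 3002 CPM in the same order. Both lists hold Sox2, which averaged 16.2 CPM in Hoxb1-null NMPs, 13.3 CPM in wild-type NMPs and 393 to 621 CPM in the NP groups. Sox2 thus made up most of the NMP marker sum in NPs. T, another NMP marker, averaged 1083, 1178 and 3.48 to 30 CPM in the same order. Of the 10 NMP markers, 9 were called higher and 1 lower in wild-type NMPs than in NPs with neither Hoxb1 nor SAG.

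Levels below are FPKM, that is, counts scaled to the effective library size over all 18 libraries (TMM factors) and divided by the exon length in the deposited table. Fold changes come from edgeR's quasi-likelihood test. P-values were adjusted by the Benjamini-Hochberg method over the whole table, and a gene is called here, or said to have risen or fallen, at an adjusted p under 0.05. Every one of the 38 genes was kept by the filter on low counts in each fit. Their counts lay between 45 and 13652 per library.

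Among the PRC2 genes, the histone-binding subunits Rbbp7 and Rbbp4, which are shared with other chromatin complexes, had the highest levels per length in both NMP groups and in NPs with Hoxb1 and SAG. Suz12, the scaffold of the complex, averaged 58.2 FPKM and Rbbp4 57.1 FPKM in NPs with SAG, with overlapping libraries. Suz12 stood above Rbbp4 with Hoxb1 alone, at 48.3 and 38.8 FPKM, and with neither, at 56 and 37 FPKM, where its libraries overlapped those of Rbbp7. Rbbp7 averaged between 144 FPKM in Hoxb1-null NMPs and 56.2 FPKM in NPs with neither Hoxb1 nor SAG. The catalytic subunit Ezh2 averaged 29.3 to 38.6 FPKM over the 6 groups and its paralog Ezh1 4.64 to 8.21 FPKM. Of the summed Ezh1 and Ezh2 level, Ezh1 made up 10.7% ± 0.634 in Hoxb1-null NMPs, 10.9% ± 0.492 in wild-type NMPs, 14.5% ± 0.894 in NPs with Hoxb1 and SAG, 16.2% ± 0.92 in NPs with SAG, 21.1% ± 0.646 in NPs with Hoxb1 and 20.8% ± 0.858 in NPs with neither (SD, n = 3 each). Ezh2 was therefore the main catalytic transcript in every group, and the neighbouring pairs that share a SAG state or are both NMPs overlapped. The Polycomb-like genes, whose products bring PRC2 to CpG-rich DNA, were led by Mtf2 in every group, at 74.5% of their sum in Hoxb1-null NMPs, 77.4% in wild-type NMPs and 57.3% to 71.9% over the NP groups.

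**Figure D1:**
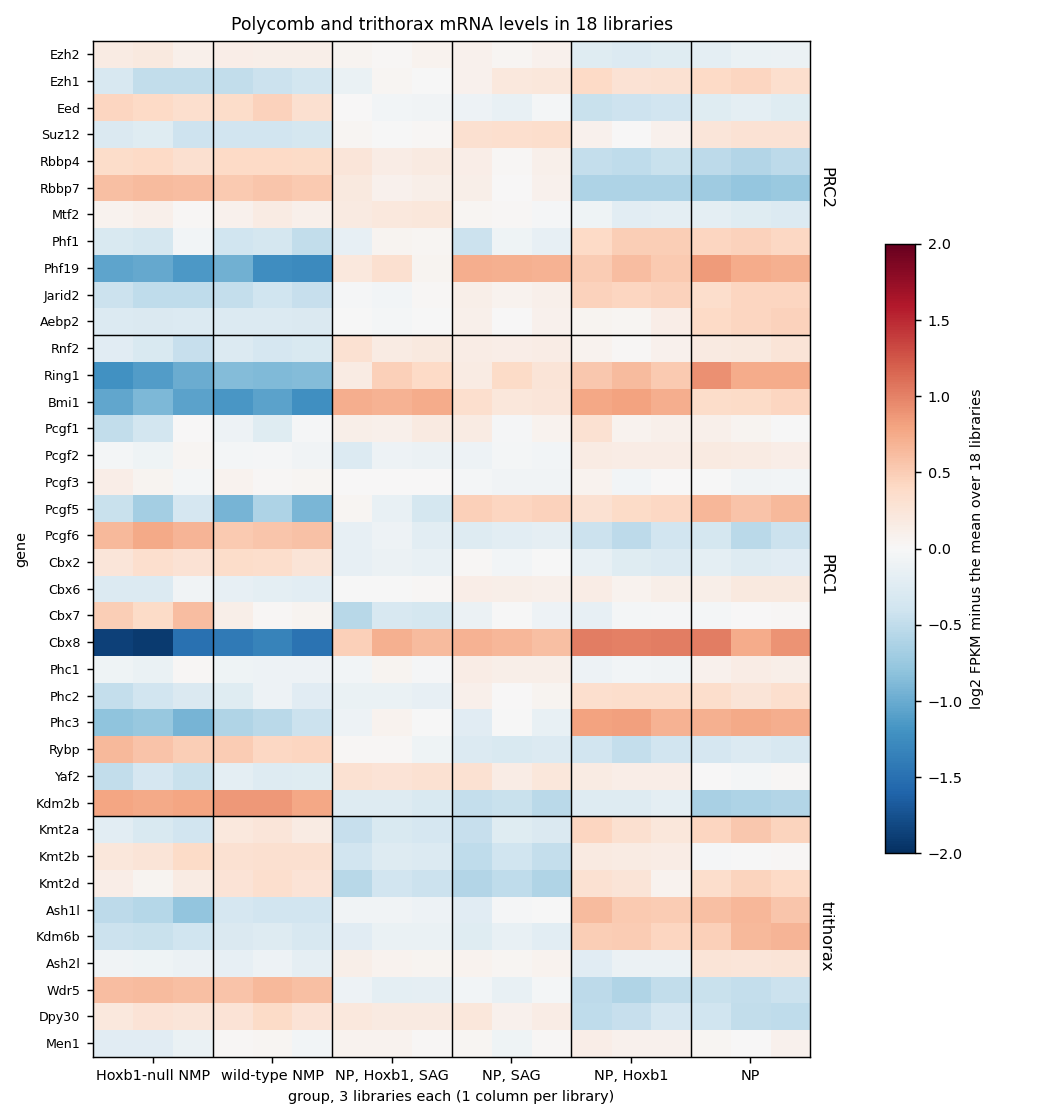
Levels of the 38 genes in each of the 18 libraries, as log2 FPKM minus the gene's own mean over all libraries (red above, blue below). Rows are genes, ordered by complex, and columns are libraries in blocks of 3 per group. Cbx8, Phf19, Bmi1 and Ring1 are at their lowest in both NMP groups, while Kdm2b, Rbbp7, Wdr5 and Pcgf6 are at their highest there.

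The PCGF genes define which PRC1 is built around the RING1 ligases. Pcgf2 is a partner of the canonical PRC1 that holds CBX and PHC proteins. By group means it led in every group, with 35.6% to 42.4% of the summed PCGF level. In Hoxb1-null NMPs the libraries of Pcgf6 and Pcgf2 overlapped, with Pcgf6 at 36.6% and Pcgf2 at 34.9% in replicate 2. Bmi1, the other canonical PCGF gene, held 4.01% ± 0.283 of the sum in Hoxb1-null NMPs and 3.78% ± 0.197 in wild-type NMPs. In NPs its share was 14.3% ± 0.464 with Hoxb1 and SAG against 10.5% ± 0.452 with SAG, and 13.7% ± 0.477 with Hoxb1 against 10.8% ± 0.425 with neither. The Bmi1 share was thus higher in every NP library than in any NMP library, and higher in each NP library with Hoxb1 than in any NP library without it. Pcgf6, which marks a variant PRC1 with E2F6 and MGA, went the other way between the cell types, with 34.9% ± 1.53 and 33% ± 0.573 in Hoxb1-null and wild-type NMPs and 15.8% to 20.8% as the means of the NP groups.

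The CBX genes encode the subunits with which canonical PRC1 reads methylated H3K27. Among the 4 CBX genes of the 38 (Cbx2, Cbx6, Cbx7 and Cbx8), Cbx2 led in every group, with 55.8% ± 2.18 of their summed level in Hoxb1-null NMPs, 59.9% ± 0.796 in wild-type NMPs and 44.4% to 50.5% in the NP groups. Cbx7, the CBX gene best known from embryonic stem cells, held 24.1% ± 1.32 in Hoxb1-null NMPs and 18.6% ± 0.561 in wild-type NMPs. Cbx8 was a minor transcript in NMPs, at 1.16% ± 0.143 in Hoxb1-null and 1.53% ± 0.0594 in wild-type cells, and reached 6.75% to 9.06% in the NP groups. Among the polyhomeotic genes, whose products link PRC1 complexes to each other, Phc3 made up 2.46% to 5.54% of the sum as group means, and Phc1 and Phc2 shared the rest.

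**Figure D2:**
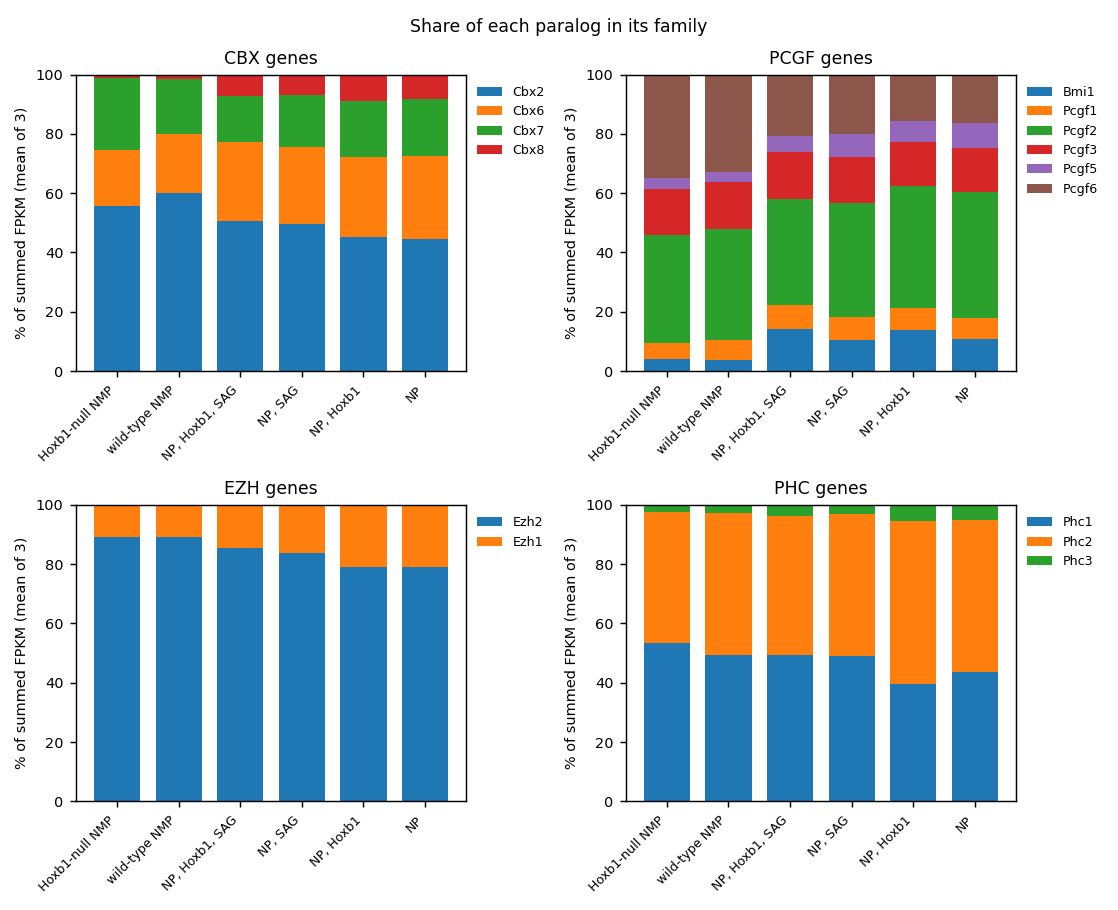
Share of each paralog in the summed FPKM of the genes of its family among the 38 (mean of 3 libraries) in the 6 groups, for the CBX, PCGF, EZH and PHC genes. The Bmi1 and Cbx8 segments are thin in both NMP groups and wide in the 4 NP groups, and the Cbx7 segment is wider in Hoxb1-null than in wild-type NMPs.

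The first comparison asked what the loss of Hoxb1 does in NMPs. In Hoxb1-null against wild-type NMPs, 2 of the 38 genes were higher and 9 lower (28.9%), beside 28.8% of all 15032 genes tested (14.9% higher and 13.9% lower). None of the 38 was called with a change of 1.5-fold or more, beside 7.58% of all genes, and the median size of change was 0.08 on the log2 scale, beside 0.13 for all genes. The calls fell on PRC1, with 2 higher and 4 lower of 18, and on the trithorax side, with 0 higher and 5 lower of 9. Over all genes tested, 42% had Hoxb1-null and wild-type libraries that did not overlap.

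No PRC2 gene was called in edgeR or DESeq2 (0 of 11 in each), and 2 had an unadjusted p under 0.05 in edgeR. Log2 changes of the PRC2 genes lay between -0.04 and 0.19, with Ezh2 at 0.03 ± 0.039 and Suz12 at 0.06 ± 0.0445 (SE). Such a result does not show that PRC2 transcripts were equal, only that changes of this size did not pass the test in 3 libraries against 3.

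In PRC1, Cbx7 had 16.9, 15.8 and 18.6 FPKM in Hoxb1-null NMPs, against 13.1, 12.2 and 12.5 FPKM in wild-type NMPs. The groups did not overlap, and Cbx7 rose by 0.45 ± 0.053 on the log2 scale (edgeR, adjusted p = 1.19e-06). Pcgf6 also rose, by 0.15 ± 0.05 (edgeR, adjusted p = 0.0257). Phc3 had 1.63, 1.69 and 1.5 FPKM in Hoxb1-null NMPs, against 1.87, 1.96 and 2.12 FPKM in wild-type NMPs, a log2 change of -0.30 ± 0.072 (edgeR, adjusted p = 0.00324). Its paralog Phc2 had 27.1, 29 and 30.9 FPKM in Hoxb1-null NMPs, against 31.8, 35.1 and 32.4 FPKM in wild-type NMPs (log2 change -0.19 ± 0.046). For both polyhomeotic genes each Hoxb1-null library lay under each wild-type library, whereas Phc1 had a log2 change of 0.04 ± 0.042 and was not called. The ligase gene Ring1 had 6.54, 6.97 and 7.56 FPKM in Hoxb1-null NMPs, against 8.28, 8.16 and 8.32 FPKM in wild-type NMPs (log2 change -0.22 ± 0.0705, edgeR adjusted p = 0.0196). Yaf2, a partner of variant PRC1, had 16.1, 17.9 and 16.6 FPKM in Hoxb1-null NMPs, against 19.9, 19 and 19.1 FPKM in wild-type NMPs (log2 change -0.19 ± 0.062). Calls for Ring1, Pcgf6 and Yaf2 were lost when any single wild-type library was left out, and in DESeq2, with adjusted p up to 0.08, 0.133 and 0.0986 over the alternatives. Ring1 also lost its call without Hoxb1-null replicate 1 or 2, Pcgf6 without Hoxb1-null replicate 2, Yaf2 without Hoxb1-null replicate 1, and Phc2 without wild-type replicate 2 (adjusted p = 0.0568).

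On the trithorax side, Kmt2a, which encodes the MLL1 H3K4 methyltransferase that maintains Hox expression, had 6.61, 6.18 and 5.85 FPKM in Hoxb1-null NMPs, against 8.89, 9.01 and 8.57 FPKM in wild-type NMPs. It fell by 0.50 ± 0.046 on the log2 scale, the largest change among the 38 genes in this comparison (edgeR, adjusted p = 3.89e-08). Men1, whose product menin anchors MLL1 to chromatin, had 27.7, 27.9 and 29.6 FPKM in Hoxb1-null NMPs, against 33.2, 33.6 and 31.3 FPKM in wild-type NMPs (log2 change -0.20 ± 0.045, edgeR adjusted p = 0.00209). Ash1l, a methyltransferase for lysine 36 of histone H3, had 4.14, 3.99 and 3.44 FPKM in Hoxb1-null NMPs, against 4.7, 4.56 and 4.55 FPKM in wild-type NMPs (log2 change -0.25 ± 0.063, edgeR adjusted p = 0.00507). All 3 had every Hoxb1-null library under every wild-type library. Kmt2d, an enhancer H3K4 methyltransferase, and Kdm6b, an H3K27 demethylase, were called lower with log2 changes of -0.17 ± 0.039 and -0.13 ± 0.037. Kmt2b, Ash2l, Wdr5 and Dpy30, which include the core subunits shared by all H3K4 methyltransferases of this family, had log2 changes from -0.05 to 0.06 and were not called.

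Long transcripts were called lower more often than higher in this comparison. Of all genes with at least 12000 bases of exon, 33.7% were lower and 11.5% higher in Hoxb1-null NMPs, beside 13.9% and 14.9% of all genes. The median log2 change of these long genes was -0.07. Across all 15032 genes Pearson's r between log2 change and log2 exon length was 0.00606 and Spearman's rho -0.0235. Across the 38 members they were -0.318 and -0.28, all as descriptions over genes that share the same libraries. Among the members, 4 of the 5 with at least 10000 bases (Kmt2a, Kmt2d, Phc3 and Ash1l) were among the 9 called lower. With an offset for exon length the log2 change was -0.40 for Kmt2a, -0.22 for Phc3 and -0.19 for Ash1l, each still called, and -0.06 for Kmt2d, which was not (edgeR, adjusted p = 0.386). Kdm6b lost its call without Hoxb1-null replicate 2 or wild-type replicate 1 or 2 (adjusted p up to 0.0749). Hoxb1-null replicate 3 differed more from its group than other replicates did, and without it 5 members were higher and 10 lower. Beside these changes, 15 replication and mitosis markers summed to 4427 to 4595 CPM in Hoxb1-null NMPs and 4740 to 4918 CPM in wild-type NMPs, 14 pluripotency markers to 927 to 1110 CPM and 783 to 841 CPM, and 6 presomitic mesoderm markers to 660 to 721 CPM and 805 to 889 CPM in the same order. Called higher and lower in Hoxb1-null NMPs were 0 and 5 of the 15 replication and mitosis markers and 9 and 0 of 12 pluripotency markers tested. For the presomitic mesoderm markers it was 1 and 3 of 5 tested. No marker of these lists was at 0 in either group, and their part in the changes of the 38 genes was not tested.

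**Figure D3:**
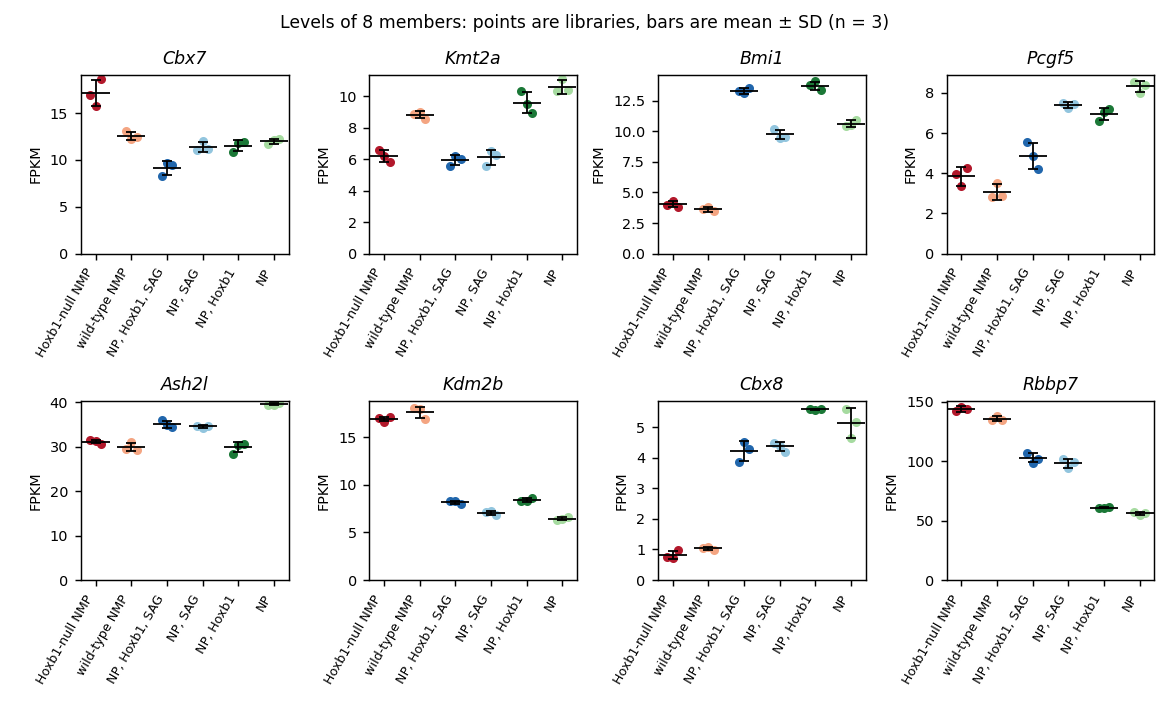
FPKM of 8 genes in every library (points), with the mean ± SD of the 3 libraries of each group (bars). Cbx7 is highest and Kmt2a lower in Hoxb1-null than in wild-type NMPs, Bmi1 is higher with Hoxb1 than without it in NPs of both SAG states, and Ash2l in NPs without SAG is 28.5 to 30.6 FPKM with Hoxb1 and 39.4 to 39.8 FPKM without it.

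The second question was what Hoxb1 does in NPs. With SAG, 9 genes were higher and 11 lower with Hoxb1 (52.6% of 38, beside 43.4% of all 16238 genes tested, 21.4% higher and 21.9% lower). Without SAG, 5 were higher and 11 lower (42.1%, beside 46.2% of all genes, 24.1% higher and 22.1% lower). Pcgf5 with SAG was the sole change called at 1.5-fold or more, beside 10.8% of all genes with SAG and 12.3% without. PRC2 had 3 higher and 4 lower of 11 with SAG and 1 and 5 without, PRC1 5 and 7 of 18 and 3 and 3, and the trithorax side 1 and 0 of 9 and 1 and 3. In both SAG states Bmi1, Kdm2b and Kmt2b rose and Suz12, Phf19, Pcgf5 and Phc1 fell, while Rnf2 was called higher with SAG and lower without it. Libraries with and without Hoxb1 did not overlap for 50.5% of all genes with SAG and 53.8% without.

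Bmi1 had 13.3, 13.1 and 13.5 FPKM with Hoxb1 and SAG, against 10.2, 9.48 and 9.54 FPKM with SAG alone. In the absence of SAG it had 13.8, 14.1 and 13.4 FPKM with Hoxb1, against 10.4, 10.5 and 10.9 FPKM with neither. The libraries with Hoxb1 lay above those without it in both SAG states, and the log2 changes were 0.46 ± 0.044 with SAG and 0.38 ± 0.05 without (edgeR, adjusted p = 9.11e-12 and 3.14e-08). Kdm2b, whose product brings variant PRC1 to CpG islands, had 8.26, 8.24 and 7.97 FPKM with Hoxb1 and SAG, against 7.12, 7.22 and 6.79 FPKM with SAG alone. In NPs without SAG the Kdm2b values were 8.29, 8.26 and 8.58 FPKM with Hoxb1, against 6.29, 6.41 and 6.58 FPKM with neither. Both Kdm2b changes were called, at 0.22 ± 0.035 with SAG and 0.39 ± 0.04 without. Pcgf1, the PCGF partner of Kdm2b, had log2 changes of 0.07 ± 0.078 and 0.12 ± 0.098 and was not called. Kmt2b, an H3K4 methyltransferase, rose by 0.17 in each state (SE 0.035 with SAG and 0.036 without).

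Suz12 had 47.5, 45.9 and 47.1 FPKM with Hoxb1 and SAG, against 57.7, 58.2 and 58.8 FPKM with SAG alone. It had 49.1, 46.6 and 49.2 FPKM with Hoxb1, against 55, 56.6 and 56.5 FPKM with neither. Suz12 thus fell in both states, by 0.31 ± 0.029 and 0.21 ± 0.031 on the log2 scale (edgeR, adjusted p = 1.16e-11 and 5.32e-07). Of the other core PRC2 genes, Eed, which binds the H3K27 mark, had a log2 change of 0.06 ± 0.038 with SAG and was not called there. Without SAG it had 25.1, 25.6 and 26.2 FPKM with Hoxb1, against 28.8, 29.9 and 28.8 FPKM with neither, a log2 change of -0.18 ± 0.046 (edgeR, adjusted p = 0.00132). Ezh2 was not called with SAG (-0.02 ± 0.03) and was called lower without it (-0.09 ± 0.033), a call that was lost without any single Hoxb1 library, without replicate 2 or 3 of the NPs with neither, with no filter on low counts and in DESeq2 (adjusted p up to 0.101). Rbbp4 was called higher with SAG (0.12 ± 0.031), which was lost without SAG replicate 2 (adjusted p = 0.0512), and Rbbp7 higher without SAG (0.12 ± 0.036). Ezh1 was called lower with SAG (-0.20 ± 0.048) and not without (-0.06 ± 0.053).

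The Polycomb-like genes moved apart. Phf19 had 2.05, 2.2 and 1.84 FPKM with Hoxb1 and SAG, against 2.93, 2.88 and 2.85 FPKM with SAG alone (log2 change -0.50 ± 0.075, edgeR adjusted p = 5.57e-07). In the libraries without SAG it had 2.52, 2.72 and 2.54 FPKM with Hoxb1, against 3.2, 2.96 and 2.88 FPKM with neither (-0.21 ± 0.089, edgeR adjusted p = 0.0446). Mtf2 had 30.6, 31.3 and 31.7 FPKM with Hoxb1 and SAG, against 27.6, 27.3 and 26.6 FPKM with SAG alone (0.21 ± 0.033), and was not called without SAG (0.08). Phf1 was called higher with SAG (0.20 ± 0.068), with groups that overlapped, and not without SAG (0.03). The Phf1 call was lost without Hoxb1 and SAG replicate 2 or 3 or SAG replicate 1, and when the 6 libraries compared were fitted alone (adjusted p up to 0.215). That of Phf19 without SAG was lost without Hoxb1 replicate 1 or 3, without replicate 1 or 2 of the NPs with neither, with no filter on low counts and in DESeq2 (adjusted p up to 0.152).

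In PRC1, Pcgf5, the PCGF gene of a variant PRC1 that also deposits H2A ubiquitin, had 5.54, 4.85 and 4.23 FPKM with Hoxb1 and SAG, against 7.51, 7.23 and 7.43 FPKM with SAG alone. Without SAG it had 6.61, 7.03 and 7.19 FPKM with Hoxb1, against 8.56, 8 and 8.41 FPKM with neither. It fell by 0.60 ± 0.084 with SAG and by 0.25 ± 0.095 without (edgeR, adjusted p = 1.34e-07 and 0.0258). The second of these calls was lost without Hoxb1 replicate 1, without replicate 1 or 3 of the NPs with neither, and in DESeq2 (adjusted p up to 0.102). Cbx7 had 8.25, 9.64 and 9.48 FPKM with Hoxb1 and SAG, against 11.1, 12 and 11.2 FPKM with SAG alone (log2 change -0.32 ± 0.048), and no call without SAG (-0.05 ± 0.054). Rybp, a variant PRC1 subunit, had 7.27, 7.29 and 6.79 FPKM with Hoxb1 and SAG, against 5.92, 5.82 and 5.94 FPKM with SAG alone (0.28 ± 0.051), and no call without SAG (-0.10 ± 0.065). With SAG, Cbx2, Cbx6, Pcgf2 and Phc2 were also called lower, at -0.09 to -0.18, and Pcgf3 higher, at 0.08. The Pcgf3 call was lost without any single library of the 6 compared (adjusted p up to 0.212), and that of Pcgf2, whose groups overlapped, without Hoxb1 and SAG replicate 1 or SAG replicate 2 or 3 (adjusted p up to 0.341). Yaf2 was called higher without SAG (0.16 ± 0.052) and lost this call without replicate 2 of the NPs with neither (adjusted p = 0.0673). Phc1 fell by 0.12 ± 0.032 with SAG and by 0.18 ± 0.034 without.

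On the trithorax side, Ash2l, a core subunit that all methyltransferases of the KMT2 family share, had 36, 34.9 and 34.5 FPKM with Hoxb1 and SAG, against 34.8, 34.2 and 34.8 FPKM with SAG alone, and was not called (0.03 ± 0.031). Without SAG it had 28.5, 30.5 and 30.6 FPKM with Hoxb1, against 39.5, 39.4 and 39.8 FPKM with neither. Those groups lay well apart, and Ash2l fell by 0.40 ± 0.034 on the log2 scale (edgeR, adjusted p = 2.75e-13), the largest change of the 38 genes in NPs without SAG. Wdr5 and Dpy30, which sit in the same core, had log2 changes of -0.07 and 0.04 with SAG and -0.09 and 0.04 without and were not called in either state. Kmt2d and Kdm6b were called lower without SAG (-0.18 ± 0.057 and -0.12 ± 0.046), and both calls were lost without replicate 2 or 3 of the NPs with neither (adjusted p up to 0.0682 and 0.167 over the alternatives). That of Kdm6b, whose libraries overlapped, was also lost without Hoxb1 replicate 1 or 3. Kmt2a, Ash1l and Men1 were not called in either state, with log2 changes from -0.14 to 0.07.

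**Figure D4:**
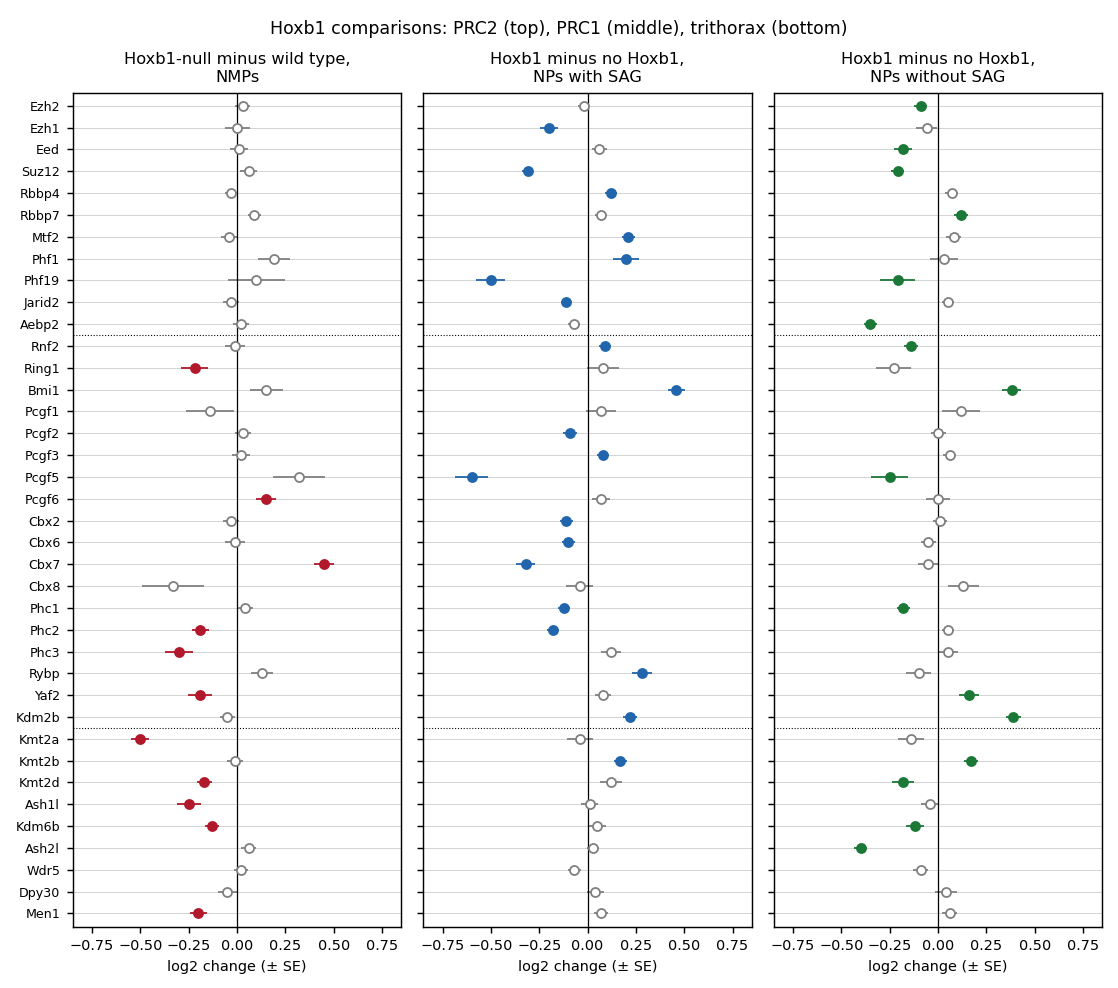
Log2 change ± SE of the 38 genes in the 3 Hoxb1 comparisons: Hoxb1-null minus wild-type NMPs, and Hoxb1 minus no Hoxb1 in NPs with SAG and in NPs without SAG. Filled symbols are calls at an adjusted p under 0.05 and open ones are not called. Bmi1 and Kdm2b lie right of 0 and Suz12, Phf19 and Pcgf5 left of 0 in both NP panels, and Cbx7 and Kmt2a stand out in the NMP panel.

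Marker sums also differed between these groups. The 12 markers of postmitotic neurons summed to 1883 to 1958 CPM with Hoxb1 and SAG against 1084 to 1121 CPM with SAG, and to 2704 to 2866 CPM with Hoxb1 against 1865 to 1934 CPM with neither. The 8 neural progenitor markers summed to 1650 to 1694 CPM with Hoxb1 and SAG against 2078 to 2167 CPM with SAG, with 0 called higher and 6 lower. They summed to 2706 to 2757 CPM with Hoxb1 against 2824 to 3002 CPM with neither, with 4 called higher and 4 lower. The 8 mesenchyme markers summed to 2193 to 2391 CPM with Hoxb1 and SAG against 2188 to 2228 CPM with SAG, which overlapped, and to 969 to 1005 CPM with Hoxb1 against 460 to 485 CPM with neither. The 14 pluripotency markers summed to 453 to 493 CPM with Hoxb1 and SAG against 511 to 554 CPM with SAG. There 4 were called higher and 5 lower, and Pou5f1 alone averaged 86.3 against 133 CPM. Without SAG the pluripotency markers summed to 178 to 211 CPM with Hoxb1 against 340 to 384 CPM with neither, with 0 called higher and 13 lower. Of the 12 neuron markers, 7 were called higher and 3 lower with Hoxb1 under SAG, and 11 and 1 in the absence of SAG. Of the 8 mesenchyme markers, 5 were called higher and 1 lower with Hoxb1 in each SAG state. Fewer cells of a type and less RNA per cell cannot be told apart in bulk libraries, and the part of these markers in the changes of the 38 genes was not tested. With SAG, all genes on chromosome 11 had a median log2 change of -0.13 with Hoxb1, and 6 members lie there (Ezh1, Suz12, Pcgf2, Cbx2, Cbx8 and Kdm6b), of which 4 were called lower and 0 higher in that comparison by edgeR. The Suz12 and Ezh1 changes of -0.31 and -0.20 were larger than this median, whereas those of Pcgf2 and Cbx2 (-0.09 and -0.11) were not. Without SAG the median of chromosome 11 was -0.01.

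Promoter windows from RefSeq (assembly GRCm38.p6, 250 bases before to 50 bases after a transcript start) were held for 30 of the 38 genes, 46 windows in all. They were rich in CpG, with a median of 24 CpG per window against 7 over all 32851 windows, and 84.8% held at least 10 CpG, beside 43.5% of all windows. 3 windows of genes that changed with Hoxb1 in NPs are shown, that of Aebp2 being 1 of its 3 windows and shown for its motif match, with the letters of any searched motif in capitals and the rest in lower case, 5′ to 3′ on the strand of the gene. The motifs were TGATNNAT (a Hox and Pbx site), TGGGTGGTC (a GLI site) and TTTGGCGC, TTTCCCGC or TTTCGCGC (E2F sites), each searched on both strands.
Bmi1, chr2:18676768-18677067, plus strand: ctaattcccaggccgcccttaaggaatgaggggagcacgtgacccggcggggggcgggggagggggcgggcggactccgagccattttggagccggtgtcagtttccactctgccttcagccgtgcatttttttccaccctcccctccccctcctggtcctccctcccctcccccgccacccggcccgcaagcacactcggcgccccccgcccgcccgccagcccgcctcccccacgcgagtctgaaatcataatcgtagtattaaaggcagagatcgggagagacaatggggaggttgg
Suz12, chr11:79992856-79993155, plus strand: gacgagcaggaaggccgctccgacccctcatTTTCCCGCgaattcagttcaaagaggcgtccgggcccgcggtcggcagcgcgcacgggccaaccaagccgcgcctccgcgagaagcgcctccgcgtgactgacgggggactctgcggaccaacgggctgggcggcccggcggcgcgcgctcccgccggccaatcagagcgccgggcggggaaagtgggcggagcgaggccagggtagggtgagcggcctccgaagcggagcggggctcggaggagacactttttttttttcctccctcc
Aebp2, chr6:140622413-140622712, plus strand: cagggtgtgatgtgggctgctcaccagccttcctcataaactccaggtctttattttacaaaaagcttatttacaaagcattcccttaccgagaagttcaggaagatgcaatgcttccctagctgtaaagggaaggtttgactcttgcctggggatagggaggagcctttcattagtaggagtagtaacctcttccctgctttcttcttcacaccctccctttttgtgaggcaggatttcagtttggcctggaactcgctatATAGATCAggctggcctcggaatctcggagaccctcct
The Bmi1 window held none of these letters and 23 CpG. The capitals in the Suz12 window are the E2F letters TTTCCCGC, which start 219 bases before the transcript start. An E2F match was found in 3 of the 46 windows (6.52%, those of Ezh2, Phf19 and Suz12), beside 1.84% of all windows. The capitals in the Aebp2 window, which holds 4 CpG, are the Hox and Pbx letters read on the other strand, 12 bases after the transcript start. The other Aebp2 windows, with 21 and 4 CpG, held none of the searched letters. This was the sole such match among the 46 windows (2.17%, beside 8.85% of all windows). No member window held the GLI letters, which 0.253% of all windows hold. The shares over all windows were not matched to the member windows for CpG content, which differed between them. The matches describe letters only, and a window without a match says nothing about the binding of the factor.

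Aebp2, a partner of PRC2 alongside Jarid2, had 14.2, 13.9 and 14.1 FPKM with Hoxb1 and SAG, against 15.2, 14.3 and 15.1 FPKM with SAG alone, and was not called (-0.07 ± 0.033). In NPs without SAG it had 14.8, 14.6 and 15.5 FPKM with Hoxb1, against 18.8, 19.1 and 19.6 FPKM with neither (log2 change -0.35 ± 0.0355, edgeR adjusted p = 5.04e-11). The 3 groups with SAG, Hoxb1 or both lay close to each other in Aebp2 level, and the NPs with neither lay above them. Jarid2 was called lower with SAG (-0.11 ± 0.03) and not without (0.05 ± 0.031).

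The difference of the Hoxb1 effects, with SAG minus without SAG, was called for 13 of the 38 genes (34.2%, beside 35.5% of all genes, 16.8% higher and 18.6% lower), 7 with a higher and 6 with a lower effect under SAG. The largest was that of Ash2l, at 0.43 ± 0.046 on the log2 scale (edgeR, adjusted p = 3.58e-10), followed by Rybp at 0.37 ± 0.083 and Pcgf5 at -0.34 ± 0.13. Rnf2, the main H2A ligase gene by level, was the sole member called in opposite directions in the 2 SAG states. It had 51.5, 46.6 and 48 FPKM with Hoxb1 and SAG, against 46.5, 45.7 and 46.2 FPKM with SAG alone. Without SAG it had 44, 42.6 and 44.4 FPKM with Hoxb1, against 47.2, 47.8 and 49.8 FPKM with neither. Its changes were 0.09 ± 0.033 and -0.14 ± 0.037, with a difference of 0.22 ± 0.05 (edgeR, adjusted p = 0.000411). The Rnf2 call with SAG was lost without Hoxb1 and SAG replicate 1 or 3 or any single SAG library (adjusted p up to 0.392), and that of the Pcgf5 difference without replicate 2 of the NPs with neither, Hoxb1 replicate 2 or 3, Hoxb1 and SAG replicate 2 or 3, or SAG replicate 1 or 3 (adjusted p up to 0.15). In contrast, the Bmi1, Suz12, Phc1 and Kmt2b effects had differences of 0.08, -0.10, 0.06 and -0.01, none of them called, with SE of 0.067, 0.043, 0.0465 and 0.05.

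The third question was what SAG does in NPs, in a contrast that runs across library sets. With Hoxb1, 12 genes were higher and 18 lower with SAG (78.9%, beside 72.2% of all genes, 36.4% higher and 35.8% lower). Without Hoxb1, 11 were higher and 16 lower (71.1%, beside 72.7% of all genes, 36.5% higher and 36.3% lower). In PRC2 5 were higher and 5 lower of 11 with Hoxb1, and 5 and 4 without. In PRC1 it was 4 and 8 of 18 with Hoxb1 and 4 and 6 without, and on the trithorax side 3 and 5 of 9 and 2 and 6. The 2 contrasts share no library but run across the same library sets. In both, 9 genes were called higher and 14 lower, while Ash2l was called higher with Hoxb1 (0.23) and lower without it (-0.20). The share of all genes called alike in both was not computed, and 72.2% and 72.7% of all genes were called in the single contrasts. All genes on chromosome 8, where Ash2l lies, had median log2 changes of -0.14 with Hoxb1 and -0.23 without, so that the change of Ash2l without Hoxb1 was no larger than this median. Chromosome 11 had medians of -0.16 with Hoxb1 and -0.04 without. Called changes of 1.5-fold or more numbered 8 with Hoxb1 and 9 without, beside 29.4% and 30.3% of all genes. For 74.9% of all genes in each contrast, libraries with and without SAG did not overlap.

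Rbbp7 had 107, 99 and 102 FPKM with SAG and Hoxb1, against 60.8, 60.8 and 61.3 FPKM with Hoxb1 alone, and 102, 94 and 99.1 FPKM with SAG, against 57.4, 55 and 56.3 FPKM with neither. Its paralog Rbbp4 had 64.1, 59.9 and 61 FPKM with SAG and Hoxb1, against 38.7, 37.8 and 39.8 FPKM with Hoxb1 alone, and 59, 54.6 and 57.7 FPKM with SAG, against 37.7, 35.9 and 37.5 FPKM with neither. Every library with SAG lay above every library without it for both genes, and the log2 changes were 0.75 ± 0.033 and 0.80 ± 0.0335 for Rbbp7 and 0.66 ± 0.032 and 0.62 ± 0.032 for Rbbp4, with Hoxb1 first. Dpy30 had 62.8, 61.4 and 61.4 FPKM with SAG and Hoxb1, against 38.3, 39.2 and 43 FPKM with Hoxb1 alone (0.62 ± 0.05), and a change of 0.61 ± 0.05 without Hoxb1. Wdr5 rose by 0.37 and 0.36 and Ezh2 by 0.29 and 0.22. The replication and mitosis markers were higher with SAG too, at 3876 to 4032 CPM with SAG and Hoxb1 against 3305 to 3336 CPM with Hoxb1, and at 4083 to 4158 CPM with SAG against 3039 to 3088 CPM with neither. Other marker sums differed by more. The mesenchyme markers summed to 2193 to 2391 CPM with SAG and Hoxb1 against 969 to 1005 CPM with Hoxb1, and to 2188 to 2228 CPM with SAG against 460 to 485 CPM with neither. The 6 endoderm markers summed to 156 to 157 CPM with SAG and Hoxb1 against 64.5 to 65.1 CPM with Hoxb1, and to 154 to 160 CPM with SAG against 48 to 54.5 CPM with neither. Of the 12 neuron markers, 3 were called higher and 9 lower with SAG in the presence of Hoxb1, and 0 and 12 in its absence. The neural progenitor markers summed to 1650 to 1694 CPM with SAG and Hoxb1 against 2706 to 2757 CPM with Hoxb1, and to 2078 to 2167 CPM with SAG against 2824 to 3002 CPM with neither. Pluripotency marker sums were higher with SAG in both states. With Hoxb1, 14 of the 14 pluripotency markers were called higher with SAG and 0 lower, and without Hoxb1 8 were called higher and 1 lower. The part of these markers in the SAG changes of the 38 genes was not tested.

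The methyltransferases with long transcripts fell. Kmt2d had 5.85, 6.57 and 6.34 FPKM with SAG and Hoxb1, against 10.6, 10.2 and 9.03 FPKM with Hoxb1 alone, and 5.7, 6.03 and 5.62 FPKM with SAG, against 10.9, 11.7 and 11.3 FPKM with neither. Kmt2a had 5.59, 6.2 and 6.04 FPKM with SAG and Hoxb1, against 10.3, 9.53 and 8.94 FPKM with Hoxb1 alone, and 5.58, 6.49 and 6.29 FPKM with SAG, against 10.3, 11.1 and 10.4 FPKM with neither. The log2 changes were -0.67 and -0.97 for Kmt2d and -0.70 and -0.80 for Kmt2a, with Hoxb1 first, and no library with SAG reached the lowest library without it. Ash1l had 5.66, 5.68 and 5.54 FPKM with SAG and Hoxb1, against 9.17, 8.55 and 8.44 FPKM with Hoxb1 alone, and 5.06, 5.81 and 5.89 FPKM with SAG, against 8.96, 9.4 and 8.75 FPKM with neither. Kdm6b, the H3K27 demethylase, had 38.2, 40.8 and 40.6 FPKM with SAG and Hoxb1, against 62.6, 63.7 and 59.9 FPKM with Hoxb1 alone, and 37.5, 40.1 and 38.6 FPKM with SAG, against 61.9, 70.2 and 71.7 FPKM with neither. Phc3 had 2.64, 2.99 and 2.82 FPKM with SAG and Hoxb1, against 4.95, 5.03 and 4.6 FPKM with Hoxb1 alone, and 2.43, 2.82 and 2.56 FPKM with SAG, against 4.66, 4.79 and 4.73 FPKM with neither. The changes were -0.64 and -0.70 for Ash1l, -0.64 and -0.82 for Kdm6b and -0.79 and -0.86 for Phc3 (edgeR, adjusted p at most 3.88e-10 for each). Phf1, a Polycomb-like gene with a short transcript, had 7.67, 9.76 and 9.24 FPKM with SAG, against 14, 14.3 and 13.8 FPKM with neither (-0.66 ± 0.072), and a change of -0.49 ± 0.07 with Hoxb1. Ring1 fell by 0.22 ± 0.087 with Hoxb1 and by 0.53 ± 0.085 without, and Kmt2b by 0.47 and 0.46. The Ring1 call with Hoxb1 was lost when any single library with Hoxb1 and no SAG was left out (adjusted p up to 0.103).

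Exon length moved with SAG. Among all genes with at least 12000 bases of exon the median log2 change was -0.44 with Hoxb1 and -0.51 without, and 76.9% and 78.9% of them were called lower, while genes under 2000 bases had medians of 0.25 and 0.27. Across all 16238 genes Pearson's r between log2 change and log2 exon length was -0.219 with Hoxb1 and -0.217 without, and across the 38 members -0.483 and -0.519, as descriptions over genes that share the same libraries. Of the 5 members with at least 10000 bases, Kmt2a, Kmt2d, Ash1l and Phc3 fell in both contrasts, and Kdm2b had changes of -0.05 and 0.13. With an offset for exon length the changes were -0.17 and -0.38 for Kmt2d, -0.25 and -0.28 for Kmt2a, -0.32 and -0.35 for Ash1l, -0.38 and -0.40 for Phc3 and -0.48 and -0.64 for Kdm6b, with Hoxb1 first, and each was still called. Rises of Rbbp7 (0.70 and 0.74), Rbbp4 (0.89 and 0.86), Dpy30 (0.36 and 0.33), Wdr5 (0.37 and 0.35) and Ezh2 (0.42 and 0.36) were also called with that offset. The calls without Hoxb1 of Ezh1, Eed, Jarid2, Pcgf6 and Yaf2 and those with Hoxb1 of Cbx6 and Yaf2 were lost under it, and the Aebp2 change with Hoxb1 turned to 0.11.

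**Figure D5:**
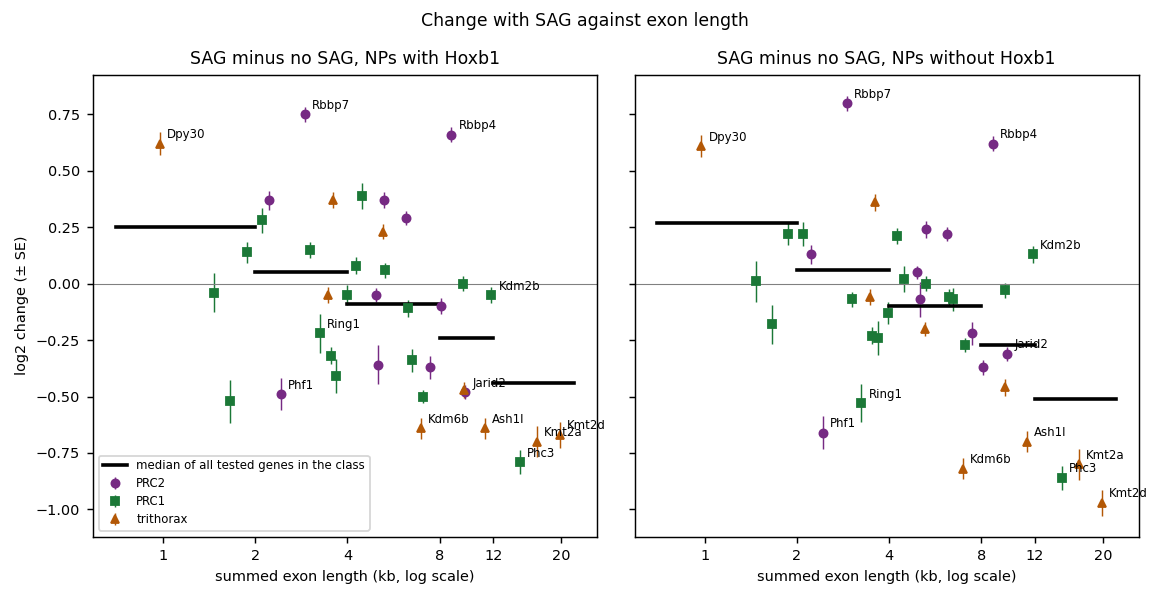
Log2 change ± SE with SAG against summed exon length (log axis, kilobases) for the 38 genes, by complex, in NPs with Hoxb1 and in NPs without Hoxb1. Black bars are the medians of all tested genes in 5 length classes, which run from 0.25 to -0.44 with Hoxb1 and from 0.27 to -0.51 without; Kmt2a, Kmt2d, Phc3 and Ash1l lie under these medians and Rbbp7, Rbbp4 and Dpy30 above them.

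The last comparison set wild-type NMPs against NPs with neither Hoxb1 nor SAG, 2 cell types from different library sets. Of the 38 genes, 13 were higher and 22 lower in NMPs (92.1%, beside 86% of all 16761 genes tested, 42.3% higher and 43.7% lower), and 21 were called at 1.5-fold or more, beside 61.4% of all genes. PRC1 had 5 higher and 11 lower of 18, PRC2 5 and 6 of 11, and the trithorax side 3 and 5 of 9. The NP libraries are the same ones as in the Hoxb1 and SAG contrasts above, so changes of a gene in these contrasts are not independent of each other. NMP and NP libraries did not overlap for 86.6% of all genes tested.

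Cbx8 had 1.04, 1.09 and 0.989 FPKM in wild-type NMPs, against 5.59, 4.63 and 5.16 FPKM in NPs, a log2 change of -2.28 ± 0.11. Phf19 had 0.904, 0.745 and 0.733 FPKM in NMPs, against 3.2, 2.96 and 2.88 FPKM in NPs (-1.92 ± 0.11). Ring1 had 8.28, 8.16 and 8.32 FPKM in NMPs, against 28.4, 25.3 and 25.3 FPKM in NPs (-1.66 ± 0.073). These genes and the next 3 had NMP libraries below the lowest NP library. Bmi1 had 3.62, 3.85 and 3.45 FPKM in NMPs, against 10.4, 10.5 and 10.9 FPKM in NPs (-1.53 ± 0.065). Pcgf5 had 2.82, 3.5 and 2.85 FPKM in NMPs, against 8.56, 8 and 8.41 FPKM in NPs (-1.42 ± 0.11). Phc3 had 1.87, 1.96 and 2.12 FPKM in NMPs, against 4.66, 4.79 and 4.73 FPKM in NPs (-1.24 ± 0.06). The genes that were higher in NMPs were led by Kdm2b, with 18, 17.9 and 16.9 FPKM in NMPs against 6.29, 6.41 and 6.58 FPKM in NPs (1.47 ± 0.039). Rbbp7 had 135, 138 and 135 FPKM in NMPs, against 57.4, 55 and 56.3 FPKM in NPs (1.29 ± 0.036). Wdr5, Pcgf6, Rbbp4, Dpy30, Rybp, Eed and Cbx2 were also higher, at 0.57 to 1.07.

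Between the cell types, variant PRC1 genes went both ways, while all canonical ones called except Cbx2 were lower in NMPs. This sorting was not tested. Of the variant genes Kdm2b, Pcgf6, Rybp and Pcgf3 were higher in NMPs and Pcgf5 and Yaf2 lower, and of the canonical ones Cbx2 was higher and Bmi1, Cbx6, Cbx8, Pcgf2, Phc1, Phc2 and Phc3 lower. Pcgf1, Cbx7 and Men1 were not called (-0.16 ± 0.11, 0.08 ± 0.056 and -0.03 ± 0.041). In PRC2 the core genes Ezh2, Eed, Rbbp4 and Rbbp7 were higher and Ezh1 and Suz12 lower. Genes on chromosome 11 had a median log2 change of -0.40 in this contrast, and of the 6 members there Cbx2 was higher (0.57) and the other 5 lower. Exon length moved with this contrast as well (median -0.70 for all genes of at least 12000 bases), and with an offset for it the changes of Kmt2a (-0.25) and Kmt2d (-0.10) turned to 0.51 and 0.77. Under that offset Cbx7 was called higher (0.35, edgeR adjusted p = 9.91e-07), Pcgf1 was called lower (-0.32, adjusted p = 0.0063), and the Phc1 call was lost (-0.01, adjusted p = 0.866).

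The other genes of these pathways were taken from lists and not by their change. Of 26 further Polycomb genes, 5 were higher and 4 lower in Hoxb1-null NMPs, 8 and 2 with Hoxb1 in NPs with SAG, 6 and 9 with Hoxb1 in NPs without SAG, 6 and 15 with SAG and Hoxb1, 5 and 16 with SAG alone, and 9 and 14 in wild-type NMPs against NPs. Of 19 further trithorax and COMPASS genes the counts were 1 and 7, 3 and 2, 4 and 5, 4 and 11, 4 and 10, and 9 and 9 in the same order. Of 12 BAF remodelling genes (11 tested in NMPs) they were 0 and 1, 1 and 1, 3 and 4, 3 and 7, 3 and 7, and 5 and 4. Of all genes tested, 28.8%, 43.4%, 46.2%, 72.2%, 72.7% and 86% were called in either direction in these comparisons. In Hoxb1-null NMPs the largest of these changes were Sfmbt2 (0.57), Asxl3 (-0.50), Kmt2c (-0.35) and Bcorl1 (-0.34). Smarca2, a BAF ATPase, had a change of 0.13 ± 0.039 with Hoxb1 in NPs with SAG. Without SAG it averaged 80.3 ± 0.967 CPM with Hoxb1 and 161 ± 5.97 CPM with neither (SD, n = 3 each) and was called lower, and the difference of the effects was 1.13 ± 0.055 (edgeR, adjusted p = 1.79e-20). Asxl3, a partner of the H2A deubiquitinase BAP1, rose by 0.60 with Hoxb1 in NPs with SAG and had a change of -0.25 in NPs without SAG. E2f6, the DNA-binding partner of the Pcgf6 complex, rose by 0.38 with Hoxb1 in NPs with SAG. Called changes of these lists between wild-type NMPs and NPs included those of Actl6b, a neuronal BAF subunit (-6.83), Smarca2 (-3.07) and Epop, a PRC2 partner (2.44).

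Exons of some members overlap those of other genes in GENCODE vM21, and no source used here states whether the counting used the strand, so reads from such partners cannot be told apart. The longest overlaps were those of Rbbp4 (1578 of 8744 bases of exon), Phf1 (1370 of 2429), Kdm2b (950 of 11818) and Cbx6 (563 of 6290, on the same strand). No overlap was found for Bmi1, Phf19, Ash2l, Aebp2, Ring1, Cbx8, Phc3, Rybp or Kmt2d, and that of Cbx7 was 100 bases, of Kmt2a 378 and of Suz12 178.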

How the data were processed

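RNA-seq counts of 18 libraries were analysed, 3 for each of 6 groups. Per the labels, polyadenylated RNA was selected and sequenced from directional libraries amplified with 15 PCR cycles, and the submitters' processing notes name bcl2fastq 1.8.2, featureCounts 1.4.6 and mm10. The authors deposited raw counts per Ensembl gene with exon lengths. No source used here names the aligner, annotation release, strand setting or multi-mapper handling. Ensembl IDs had a symbol for 35449 of 37224 genes.

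Counts were tested in R 4.3.3 with edgeR 4.0.16 (filterByExpr, TMM, robust quasi-likelihood F-tests, Benjamini-Hochberg over all tested genes): 6 NMP libraries alone (15032 genes), 12 NP libraries together (16238), and all 18 for NMPs against NPs (16761). The SE is the log2 change divided by the square root of F. Alternatives were DESeq2 1.42.0, its size factors, no filter, a filter of 1 CPM in every library of a group, other sets of libraries, a replicate block, each library left out and, added after seeing the data, an offset for exon length. The scripts were tested on simulated counts. Members, lists and naming rules were chosen with earlier results of these data known: library values are given for up to 8 called members per comparison without overlap, by size of change, and up to 4 genes per comparison of the other lists are named, except for a gene that is not reported here. Ranges of depth per group are in the report, and precision is given by the SE of each change.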

Additional observations from a re-analysis of the deposited data

Results flagged for a closer look

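For 13 of the 38 genes the effect of Hoxb1 differed between NPs with SAG and NPs without SAG by the test of the difference itself (edgeR's quasi-likelihood test, adjusted p under 0.05). This is 34.2% of the 38, beside 35.5% of all genes tested, a share near that of all genes. The differences, with SAG minus without SAG on the log2 scale, were 0.43 for Ash2l, 0.37 for Rybp, 0.30 for Kmt2d, 0.28 for Aebp2, 0.24 for Eed, 0.22 for Rnf2 and 0.13 for Mtf2, and -0.34 for Pcgf5, -0.27 for Cbx7, -0.23 for Phc2, -0.17 for Jarid2, -0.17 for Kdm2b and -0.13 for Cbx2. All genes on chromosome 11, where Cbx2 lies, had a median difference of -0.10, and the 89 genes tested within 2 Mb of Cbx2 one of -0.21, so that the Cbx2 difference was no larger than that of its neighbours. Of these, Rybp, Mtf2, Cbx7, Phc2, Jarid2 and Cbx2 had a called Hoxb1 effect in NPs with SAG and not in those without it, and Ash2l, Aebp2, Eed and Kmt2d in NPs without SAG and not in those with it, while Kdm2b, Pcgf5 and Rnf2 were called in both. The Mtf2, Pcgf5 and Cbx2 differences were the least stable, with adjusted p up to 0.134, 0.15 and 0.209 over the alternatives. The libraries with and without SAG come from different library sets, and SAG and set cannot be told apart. No group had enough libraries to test for a single library that stands apart.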

How the results depend on the processing

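Of 152 called results of the 38 genes over the 7 comparisons, 118 kept an adjusted p under 0.05 under every alternative and 34 lost it in at least 1. Direction was not part of this count. A call that turned its sign under an alternative was therefore not counted as lost. Members higher in Hoxb1-null NMPs numbered 2 in the main analysis, 5 with all 18 libraries in 1 fit and 1 with DESeq2, and 1 to 5 with a library left out, and those lower 5 to 10 (main 9). With Hoxb1 in NPs without SAG, members lower numbered 7 to 10 with a library left out (main 11). All genes higher in Hoxb1-null NMPs numbered 1424 with DESeq2, against 2244 in edgeR. With an offset for exon length, changes turned to 0.11 for Aebp2, 0.03 for Cbx6, 0.29 for Kdm2b and 0.25 for Pcgf3 with SAG and Hoxb1, to 0.09 for Cbx6, 0.25 for Pcgf3 and 0.10 for Phc1 with SAG alone, and to 0.51 for Kmt2a and 0.77 for Kmt2d in wild-type NMPs against NPs. The cause was not tested. Same-numbered libraries did not deviate together in every pair (correlations from -0.0528 to 0.218), and a replicate block left 255 of 266 results on their side of the threshold, moved 11 past it and lost 0 calls. For the difference of the Hoxb1 effects, a fit of the compared libraries alone is the main fit and was not run again. The lowest counts were those of Cbx8, Phf19, Pcgf5 and Pcgf1, but wide errors were not confined to them, since Ring1, with at least 1017 counts in each NP library, had an SE of 0.0821 and 0.0889 for Hoxb1 with and without SAG.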
